A study of Mus musculus with 8 samples.

Results

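The siRNA arm of a study of YAP and TAZ in the mouse small intestine is described here, with each knockdown array set against the control array of its own number. The arm was chosen by the sample titles and holds 6 of the 8 arrays of the series: 3 from intestine given siRNAs against YAP and TAZ (siYAP/TAZ) and 3 given an siRNA against GFP (siGFP). All mice were males of ICR, an outbred stock, at 8 weeks of age, and the epithelial cells were taken 4 days after the siRNAs had been brought into the gut of the living animal. Each siGFP array is labelled as the control of the siYAP/TAZ array of the same number, which gives 3 pairs. The labels say neither what a pair shares nor that the arrays of a group come from separate mice, so the p-values below measure only the spread between these arrays, which may be technical. The labels do not state what share of the cells took up an siRNA. The remaining arrays, 1 of shLacZ and 1 of shYAP/TAZ, were left out.

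YAP and TAZ (the product of Wwtr1) are coactivators that the kinases of the Hippo pathway keep out of the nucleus. They bind no DNA themselves and act mostly through the TEAD transcription factors. The gut epithelium is renewed from stem cells at the crypt base, whose progeny become absorptive enterocytes or secretory goblet, Paneth, enteroendocrine and tuft cells, and YAP and TAZ have been linked to crypt proliferation, regeneration and secretory fate. The comparison asks which transcripts differ when both coactivators are targeted.

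Values are log2 array intensities after quantile normalization, and a difference is siYAP/TAZ minus siGFP within a pair. SEs, intervals and adjusted p-values are moderated: limma draws each gene's variance toward that of all genes. An SE is therefore not the spread of a gene's own differences alone. The epithelial markers (15 measured, from Epcam and Krt8 to Cdx2) had a mean level of 10.55 to 10.91 on the 6 arrays, so all 6 carried an epithelial profile. Most of the variation over all genes lay between pairs (65.8%), with 10.7% along treatment and 23.5% left over. Arrays of one number correlated at r = 0.944, 0.888 and 0.95 in pairs 1, 2 and 3, over genes, which are not independent replicates. In pair 2 this was lower than the correlation of the siGFP array of pair 2 with the siYAP/TAZ array of pair 3 (r = 0.914). Some arrays stood apart in some ileal or B cell transcripts. Fabp6, of the ileum, was near the floor of the array in the siGFP array of pair 2 (4.24) and the siYAP/TAZ array of pair 3 (4.40). Not all ileal transcripts were low in the siGFP array of pair 2, where Cubn stood at 11.52. In the siYAP/TAZ array of pair 3 Cubn stood at 8.90, below its siGFP array (11.69). B cell transcripts such as Bank1 were high in the siYAP/TAZ arrays of pairs 2 and 3. The part of cell content or gut segment in these levels was not tested. In bulk isolates, fewer cells of a type and less RNA per cell cannot be told apart.

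The transcripts of the targeted genes were not lower on every siYAP/TAZ array. Yap1, which encodes YAP, stood at 7.16, 7.64 and 7.20 in the siGFP arrays of pairs 1 to 3 and at 7.41, 6.78 and 7.47 in the siYAP/TAZ arrays. It was thus lower in pair 2 alone, by a difference of -0.87, against 0.25 and 0.27 in pairs 1 and 3. Its mean difference was -0.12 ± 0.31 (SE, n = 3 pairs; 95% interval -0.79 to 0.56), with an adjusted p of 1.00 in the paired limma fit and p = 1.00 in a two-sided exact sign-flip permutation test, which cannot go below 0.25 with 3 pairs. Without pair 2 the Yap1 difference was 0.26.

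Wwtr1 stood at 6.16, 5.36 and 6.52 in the siGFP arrays and at 5.60, 5.94 and 5.66 in the siYAP/TAZ arrays. It was lower in pairs 1 and 3 (-0.55 and -0.86) and higher in pair 2 (0.58), the opposite pattern to Yap1, and no pair had both transcripts lower. Its mean difference was -0.28 ± 0.32 (SE, n = 3 pairs; 95% interval -0.98 to 0.42; adjusted p = 1.00 in paired limma, exact two-sided sign-flip permutation p = 0.75). Without pair 3 the Wwtr1 difference was 0.01. The signal of the TEAD genes, the DNA-binding partners, was mixed as well: Tead1 differed by -0.95, -0.05 and 0.23 in pairs 1 to 3, Tead2 by -0.16, 0.40 and 0.38, Tead3 by -0.23, -0.18 and 0.05, and Tead4 by 1.08, -0.55 and -0.32. Wwtr1 and Tead4 were dim, with mean levels of 5.87 and 5.47 (percentiles 29.4 and 16.1 of all genes), within the dimmest 33%. Differences of such dim genes may be understated, and small ones could not be resolved. Whether the Wwtr1 transcript was reduced is therefore not settled by these values. These arrays hold no measure of YAP or TAZ protein.

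A single gene passed the threshold of 0.05 on the adjusted p. B3gnt7, which encodes an enzyme that extends sugar chains with N-acetylglucosamine, rose in the siYAP/TAZ arrays. It stood at 7.74, 5.65 and 6.63 in the siGFP arrays of pairs 1 to 3 and at 10.31, 8.16 and 9.49 in the siYAP/TAZ arrays, so every siYAP/TAZ array lay above every siGFP array. The control levels spread widely, yet the differences were alike at 2.57, 2.51 and 2.86, which is 5.96-fold, 5.71-fold and 7.25-fold. The mean difference was 2.65 ± 0.27 (SE, n = 3 pairs; 95% interval 2.06 to 3.23; 6.27-fold), with an adjusted p of 0.0118 in paired limma over 19938 genes. It was the 1 gene called higher (0.00502% of those tested), and 0 genes (0%) were called lower. At an unadjusted p under 0.05 the paired fit held 849 genes, 360 higher and 489 lower.

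The call of B3gnt7 rests on the pairing. Without the replicate block the same fit called 0 genes, with 85 higher and 152 lower at an unadjusted p under 0.05, and B3gnt7 had the same difference with an SE of 0.65 and an adjusted p of 1.00. Leaving out pair 1, 2 or 3 gave B3gnt7 an adjusted p of 6.08e-06, 0.0248 or 3.34e-05 in paired limma, with its difference between 2.54 and 2.72 over all alternatives. A fit of 2 pairs takes much of each gene's variance from all genes, so a call there need not mean that the pairs agreed. Without pair 3, such a fit also called Fabp6, whose differences in pairs 1 and 2 were -2.41 and 7.69. The count of called genes depended on which pair was left out: 46 higher and 18 lower without pair 1, 2 higher and 0 lower without pair 2, and 46 higher and 32 lower without pair 3.

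Few genes differed in one direction by a wide margin in every pair. Of the 19938 genes, 1871 (9.38%) were higher in all 3 pairs and 2566 (12.9%) were lower, and by at least 0.5 on the log2 scale in each pair 62 were higher (0.311%) and 128 lower (0.642%). Below, the genes named from these are the 12 in each direction whose smallest difference of the 3 was largest, outside the dimmest 33%. This choice uses the differences themselves, so their sizes, and a lack of overlap between groups, are a description. The share of all genes without overlap is not given here, so overlap is stated gene by gene only. None but B3gnt7 passed the threshold.

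**Figure D1:**
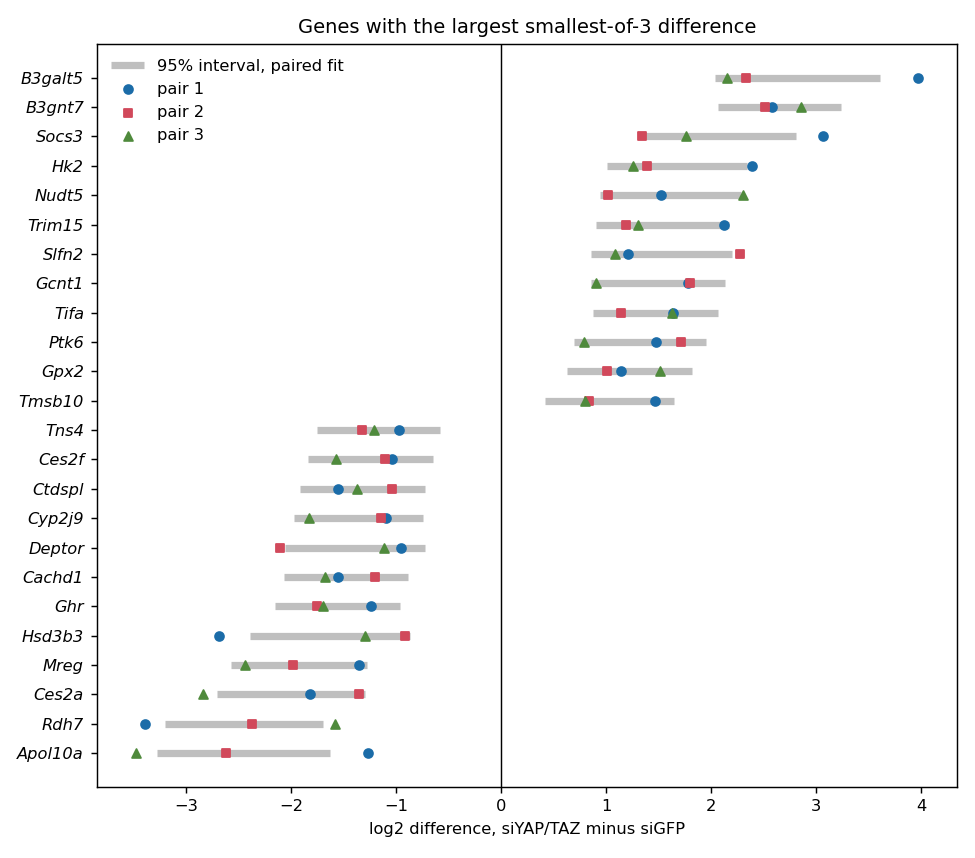
Difference of siYAP/TAZ minus siGFP (x axis, log2) for the 12 genes per direction with the largest smallest-of-3 difference (y axis), a point per pair and a grey bar for the 95% interval of the paired fit. The 3 points of B3gnt7 lie between 2.51 and 2.86, closer together than those of B3galt5, which run from 2.15 to 3.97.

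Next to B3gnt7 stood another enzyme of sugar chain synthesis. B3galt5, a galactosyltransferase that builds type 1 chains on mucosal glycans, stood at 5.83, 5.11 and 5.03 in the siGFP arrays and 9.81, 7.44 and 7.18 in the siYAP/TAZ arrays. Its groups did not overlap, and its mean difference was 2.82 ± 0.36 (SE, n = 3 pairs; adjusted p = 0.0604 in paired limma), past the threshold in 6 of 10 alternatives. Gcnt1, which makes the core 2 branch of mucin-type sugars, differed by 1.78, 1.80 and 0.90, also without overlap. Socs3, a feedback inhibitor of cytokine signalling through JAK and STAT, stood at 6.41, 6.66 and 7.09 against 9.48, 8.00 and 8.85. Its mean difference was 2.05 ± 0.34 (SE, n = 3 pairs; adjusted p = 0.188 in paired limma), and a dimmer probe set of Socs3 gave smaller differences of 0.43, 0.93 and 0.42.

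Of the other genes of this set, Hk2, the inducible hexokinase of glycolysis, stood at 7.78, 6.82 and 6.66 against 10.17, 8.21 and 7.92. It did not overlap between groups, with differences of 2.39, 1.38 and 1.25. Tifa, an adaptor of innate signalling to NF-kappaB, differed by 1.63, 1.14 and 1.63, and Ptk6, a tyrosine kinase of the gut lining, by 1.47, 1.71 and 0.78. Gpx2, the glutathione peroxidase of the gastrointestinal epithelium, differed by 1.14, 1.01 and 1.51. The smallest differences of Trim15, Slfn2, Nudt5 and Tmsb10 were 1.19, 1.09, 1.02 and 0.79. All 12 kept their direction in all 10 alternatives. This followed from the choice wherever a pair, the block or dim genes were left out or the variance choice changed. It was open only under other scalings and probe set choices. Tifa and Gpx2 were the members whose groups overlapped.

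**Figure D2:**
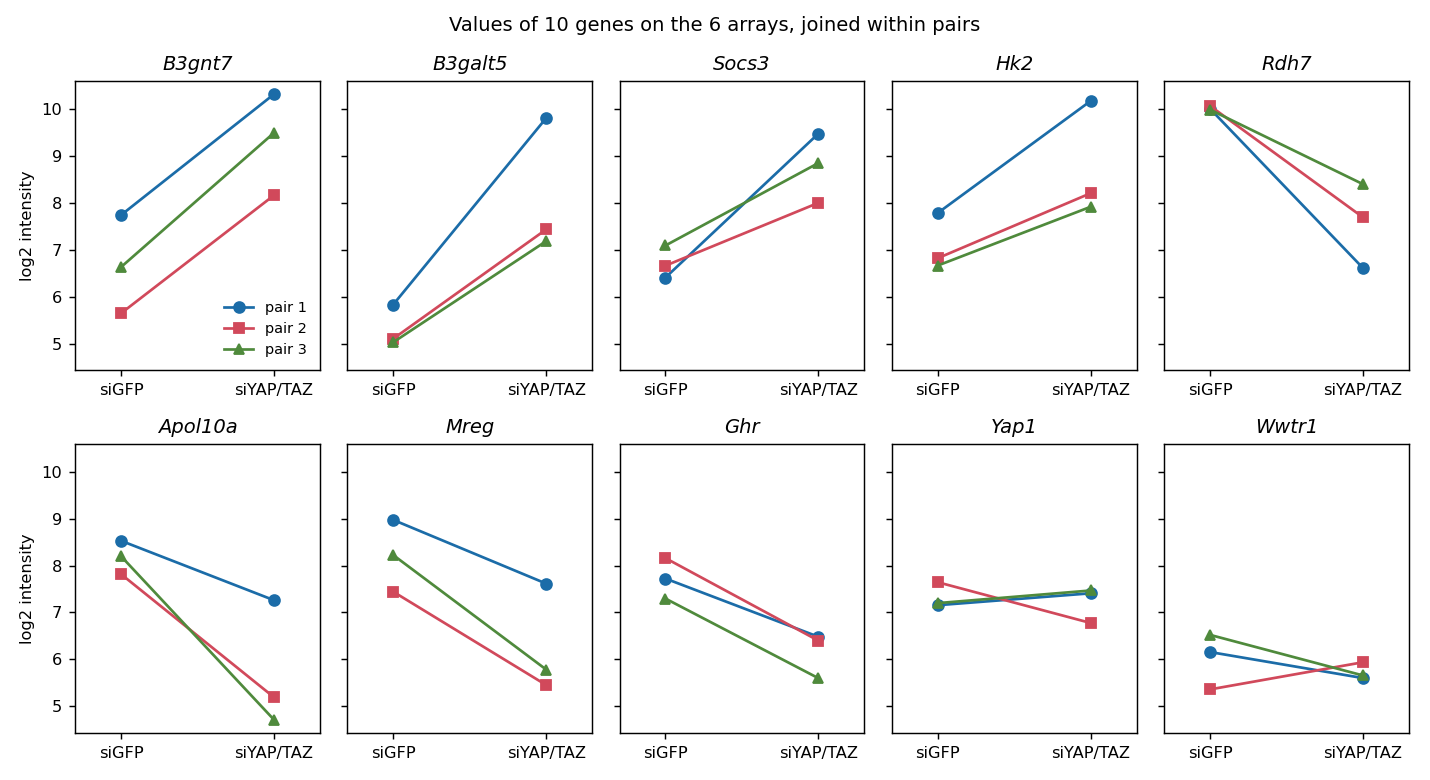
Log2 intensity (y axis) of 10 genes on the siGFP and siYAP/TAZ arrays (x axis), each line joining the arrays of a pair. The lines of B3gnt7 run almost parallel from 5.65 to 7.74 up to 8.16 to 10.31, while those of Yap1 and Wwtr1 cross.

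Of the 12 lower genes, Rdh7, a retinol dehydrogenase, had almost one level in the siGFP arrays (10.00, 10.06 and 9.98) and stood at 6.61, 7.69 and 8.40 in the siYAP/TAZ arrays. All siYAP/TAZ arrays were lower, and the mean difference was -2.45 ± 0.34 (SE, n = 3 pairs; adjusted p = 0.101 in paired limma). The carboxylesterase genes Ces2a and Ces2f differed by -1.82, -1.35 and -2.84 and by -1.05, -1.11 and -1.58, the steroid dehydrogenase gene Hsd3b3 by -2.69, -0.92 and -1.30, and the cytochrome P450 gene Cyp2j9 by -1.10, -1.14 and -1.83. Apol10a, of the apolipoprotein L family, stood at 8.53, 7.82 and 8.20 against 7.26, 5.19 and 4.72, with adjusted p = 0.121 in paired limma. Members of the Ces2, Cyp2j and Apol families resemble each other in sequence and may share array signal.

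Of the other lower genes, Ghr, the growth hormone receptor, stood at 7.72, 8.16 and 7.30 against 6.48, 6.40 and 5.60, without overlap. Deptor, an inhibitor of mTOR, differed by -0.95, -2.11 and -1.12, Tns4, a tensin of cell adhesions, by -0.97, -1.33 and -1.21, and Mreg, known from pigment cells and lysosomes, by -1.36, -1.99 and -2.44. For Ctdspl, a phosphatase gene, the differences were -1.55, -1.04 and -1.38, and for Cachd1 -1.55, -1.20 and -1.68. All 12 kept their direction in all 10 alternatives, which for most of these again followed from the choice. In the alternatives Rdh7 and Apol10a were past the threshold in 6, Mreg and Ces2a in 5, Ghr and Hsd3b3 in 1 and the other members in 0.

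Promoters are shown for 4 of these genes: B3gnt7 as the gene called, B3galt5 and Socs3 as the next 2 higher genes by their smallest difference, and Rdh7 as the first of the lower genes. Each sequence is a RefSeq window of 300 bases across a start site, in GRCm38.p6, 5′ to 3′ along the gene. Windows were searched on both strands for GGAATG, the core of TEAD sites, and for TTCNNNGAA, the STAT palindrome, which was added after the values were seen. Letters of the motifs stand in capitals, and both motifs may share letters. Of all 32851 windows, 14.7% hold GGAATG and 8.3% hold TTCNNNGAA.
B3gnt7: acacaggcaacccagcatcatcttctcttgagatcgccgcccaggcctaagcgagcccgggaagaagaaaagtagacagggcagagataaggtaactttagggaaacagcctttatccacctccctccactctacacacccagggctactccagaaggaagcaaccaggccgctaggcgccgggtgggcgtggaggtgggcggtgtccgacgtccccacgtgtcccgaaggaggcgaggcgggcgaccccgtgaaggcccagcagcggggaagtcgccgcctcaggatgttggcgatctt
B3galt5: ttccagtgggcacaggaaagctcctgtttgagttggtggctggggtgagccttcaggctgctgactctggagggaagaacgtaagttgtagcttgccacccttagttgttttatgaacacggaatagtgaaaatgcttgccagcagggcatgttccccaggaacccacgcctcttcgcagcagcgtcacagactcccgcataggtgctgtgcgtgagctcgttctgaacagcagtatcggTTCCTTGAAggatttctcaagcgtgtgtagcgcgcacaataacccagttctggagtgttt
Socs3: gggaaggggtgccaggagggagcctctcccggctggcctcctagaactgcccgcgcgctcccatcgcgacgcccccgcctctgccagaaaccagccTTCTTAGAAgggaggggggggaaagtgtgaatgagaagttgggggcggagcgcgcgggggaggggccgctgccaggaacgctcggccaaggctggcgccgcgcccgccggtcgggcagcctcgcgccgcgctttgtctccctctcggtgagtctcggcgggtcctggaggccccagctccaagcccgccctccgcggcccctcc
Rdh7: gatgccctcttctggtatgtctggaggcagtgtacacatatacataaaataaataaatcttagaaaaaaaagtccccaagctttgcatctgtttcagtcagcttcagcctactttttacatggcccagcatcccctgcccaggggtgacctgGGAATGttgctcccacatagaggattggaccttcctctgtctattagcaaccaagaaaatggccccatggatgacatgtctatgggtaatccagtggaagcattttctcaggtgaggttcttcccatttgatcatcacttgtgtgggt
The B3gnt7 window (chr1:86302971-86303270, plus strand) holds neither motif. The B3galt5 window shown is the first of 3 (chr16:96235551-96235850, plus strand) and holds TTCNNNGAA from position -10, with the start base as 0. The other B3galt5 windows hold neither motif. The Socs3 window (chr11:117969317-117969616, minus strand) holds TTCNNNGAA from position -154. The Rdh7 window shown is the first of 2 (chr10:127889198-127889497, minus strand) and holds GGAATG from position -98. The other Rdh7 window holds neither motif. Among the 12 higher genes, 11 had windows, of which 3 held GGAATG and 3 held TTCNNNGAA in at least 1 window. Among the 12 lower genes, 10 had windows, of which 3 held GGAATG and 1 held TTCNNNGAA. These counts are per gene, whereas the shares of all windows are per window. By window, 4 of 19 of the higher genes held GGAATG and 4 held TTCNNNGAA. For the lower genes the window counts were 4 and 1 of 14. Windows of one gene may overlap. A match is a run of letters, not a measured site, and these arrays hold no binding data.

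The list of YAP/TAZ target genes showed no common direction. Of 26 measured members, 2 were higher and 1 lower in all 3 pairs, beside 9.38% and 12.9% of all genes, and the list's median difference was 0.01 against -0.02 for all genes. The higher members were Tgfb2, a growth factor, with differences of 0.24, 0.63 and 0.06, and Ajuba, an adaptor that binds LATS kinases, with 0.04, 0.07 and 0.05. Sox9, a crypt transcription factor, was the lower member (-0.16, -1.37 and -0.14). The classical matricellular targets were mixed: Ccn1, named like Ccn2 after its values were seen, differed by -0.09, 0.53 and -0.38 and Ccn2 by -0.27, 0.77 and 0.04. Of 22 genes of the Hippo pathway and its effectors, 0 were higher and 1 was lower in all pairs, the upstream kinase gene Stk4 (-0.14, -0.52 and -0.32). None of these genes passed the threshold.

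**Figure D3:**
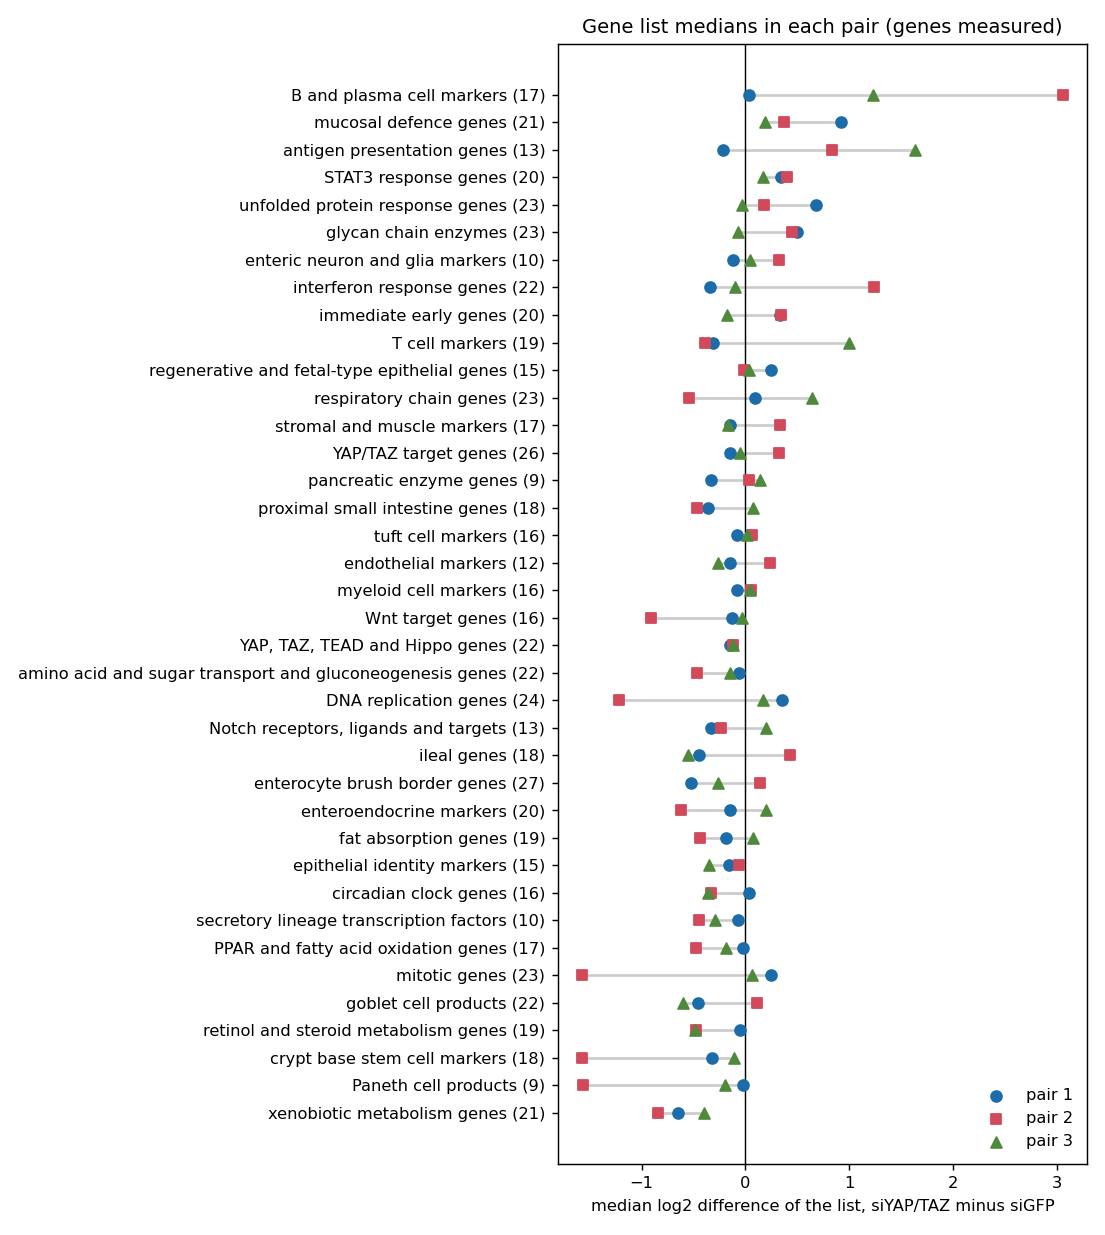
Median difference of siYAP/TAZ minus siGFP (x axis, log2) of each gene list (y axis, with the number of genes measured), a point per pair. The 3 points of the xenobiotic metabolism genes all lie below 0, between -0.84 and -0.40, while those of the mitotic genes run from -1.57 to 0.25.

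Crypt base stem cell markers leaned lower. All 18 measured markers had a negative mean difference, 9 were lower in all 3 pairs and 0 higher, beside 12.9% and 9.38% of all genes, and none passed the threshold. Lgr5, the receptor that marks cycling crypt base cells, stood at 8.57, 8.30 and 5.48 in the siGFP arrays and at 6.91, 6.13 and 4.95 in the siYAP/TAZ arrays. Olfm4, a secreted product of the same cells, stood at 11.53, 11.37 and 8.00 against 9.21, 9.16 and 7.24. Both were lower within each pair but overlapped between groups, because the siGFP array of pair 3 was low. The Wnt feedback genes Axin2 (-1.39, -1.02 and -0.29) and Rnf43 (-0.43, -2.04 and -0.18) and the ion transporter gene Slc12a2 (-0.78, -1.95 and -1.16) had the same sign. Median differences of the list were -0.32, -1.57 and -0.11 in pairs 1 to 3. All 18 markers were lower in pair 2, while 6 of the 18 were higher in each of pairs 1 and 3. Of 16 Wnt target genes, several of which are also stem cell markers, 1 was higher and 5 were lower in all pairs.

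Proliferation genes separated the pairs. All 23 mitotic genes were lower in pair 2, with a median of -1.57, whereas 20 of 23 were higher in pair 1 (median 0.25) and 12 of 23 in pair 3 (median 0.06). Mki67, the proliferation marker, differed by 0.15, -1.75 and -0.35, and Top2a, a topoisomerase of dividing cells, by 0.02, -2.56 and 0.38. In pair 2, 16 of the 23 were at least 2-fold lower, beside 8.36% of all genes there. The DNA replication genes had medians of 0.35, -1.22 and 0.17, with 21 of 24 lower in pair 2. Of its 24 members, 1 was lower and 1 higher in every pair: Ccne2, a cyclin of S phase entry (-1.15, -1.19 and -0.84), without overlap between groups, and Slbp, which binds histone mRNA (0.26, 0.13 and 0.42). A slightly dimmer probe set of Slbp was mixed, at -0.05, -0.73 and 0.52. The mean mitotic level was 7.96, 7.41 and 5.61 in the siGFP arrays and 8.26, 5.88 and 5.70 in the siYAP/TAZ arrays, so the siGFP array of pair 3 was the lowest of the 6. The part of these array levels in the pair differences was not tested.

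**Figure D4:**
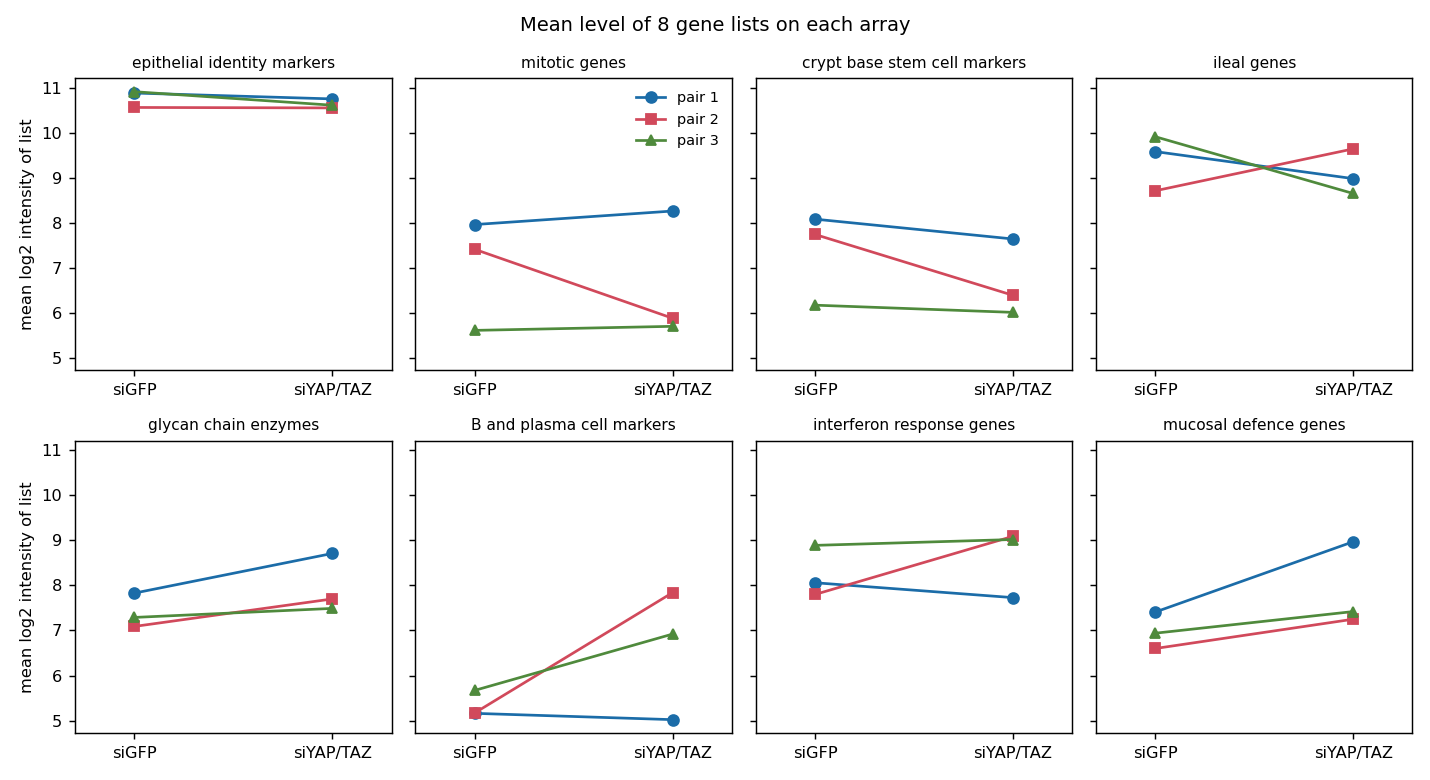
Mean log2 intensity (y axis) of the genes of 8 lists on each array (x axis), each line joining the arrays of a pair. Epithelial identity markers stay between 10.55 and 10.91, while the mitotic genes span 5.61 to 8.26 and the B and plasma cell markers 5.02 to 7.84.

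Secretory genes leaned lower in the regulators and some products. Of 10 secretory lineage transcription factors, 6 were lower and 2 higher in all 3 pairs. Atoh1, the factor that commits cells to the secretory lineage, stood at 8.83, 8.11 and 7.71 against 8.20, 7.24 and 7.17, a difference of -0.62, -0.88 and -0.53. Klf4, a factor of goblet cell differentiation, differed by -0.24, -0.30 and -0.43, and Creb3l4 by -0.68, -0.93 and -0.58. Gfi1, which keeps goblet and Paneth precursors from endocrine fate, was higher (0.35, 0.55 and 0.28). Of 22 goblet cell products, 6 were lower and 0 higher in all pairs, among them Galnt12, an enzyme that starts mucin sugar chains (-0.56, -0.61 and -1.03), and Spink4 (-0.51, -0.60 and -0.19). The main mucin gene Muc2, named after its values were seen, was lower in pairs 1 and 3 (-1.15 and -0.95) and higher in pair 2 (0.59). None of these genes passed the threshold.

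The remaining secretory types were mixed. Of 9 measured Paneth cell products, 3 were lower in all pairs, among them the lysozyme gene Lyz1 (-0.02, -1.66 and -0.59), and the list's median was -0.02, -1.57 and -0.19, so that pair 2 set most of it. Among 20 enteroendocrine markers, 3 were lower, a share near that of all genes, including the peptide genes Nts (-0.66, -1.53 and -0.56) and Ghrl (-0.16, -1.09 and -0.04). The 16 tuft cell markers split evenly, with 2 higher, Plcg2 and Avil, and 2 lower, Hpgds and Trpm5, in all pairs.

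Detoxification and retinoid genes of the enterocyte stood lower in the mean in most cases. Of 21 xenobiotic metabolism genes, 10 were lower and 0 higher in all 3 pairs, and the list's medians were -0.65, -0.84 and -0.40. Besides Ces2a, these included the glucuronosyltransferase genes Ugt2b34 (-1.10, -1.29 and -0.74) and Ugt2b5 (-1.56, -0.79 and -0.66) and the cytochrome P450 gene Cyp3a25 (-1.50, -0.84 and -0.36). Ugt2b34 did not overlap, at 10.78, 11.05 and 10.16 against 9.68, 9.77 and 9.42. Of 19 retinol and steroid genes, 7 were lower and 2 higher. Lrat, which esterifies retinol, differed by -1.82, -1.50 and -0.13, and Aldh1a1, which makes retinoic acid, by -0.28, -0.87 and -1.25. None of these genes passed the threshold.

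Brush border genes had medians of -0.53, 0.14 and -0.27 in pairs 1 to 3, with 15 of 27 higher in pair 2. In all pairs 4 of the 27 were lower and 0 higher, and the lower share was near the 12.9% of all genes. The 4 were Cubn, the vitamin B12 receptor of the distal gut (-4.99, -0.76 and -2.79), Alpi, the intestinal alkaline phosphatase (-1.01, -0.35 and -0.48), and the digestive enzyme genes Sis (-0.55, -0.14 and -0.24) and Anpep (-0.73, -0.14 and -0.31). Cubn stood at 10.96, 11.52 and 11.69 against 5.97, 10.75 and 8.90, without overlap. Its differences spread widely (SD 2.11), and paired limma gave a moderated SE of 0.57 and an adjusted p of 0.388. Of 19 fat absorption genes, 6 were lower and 1 higher, with Fabp2, the intestinal fatty acid binding protein, at -0.48, -0.25 and -0.28. Epithelial identity markers leaned the same way, 7 lower and 1 higher of 15. Epcam, an adhesion protein of epithelia, differed by -0.50, -0.20 and -0.34. The part of these marker differences in those of the enterocyte lists was not tested. Of 17 genes of PPAR signalling and fatty acid oxidation, 4 were lower and 1 higher, with Ppara itself at -0.41, -0.49 and -1.27.

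Glycan chain enzymes were the list with most members of at least 0.5 in one direction in every pair. These were 5 of 23, all higher, beside 0.311% of all genes higher by that size. The list's medians were 0.49, 0.45 and -0.07 in pairs 1 to 3, and 14 of the 23 were lower in pair 3. In all pairs 7 were higher and 3 lower, beside 9.38% and 12.9% of all genes. Chst4, a sulfotransferase of mucosal glycans, joined B3gnt7, B3galt5 and Gcnt1, at 6.82, 6.53 and 6.52 against 10.12, 7.31 and 7.31, without overlap. Fut2, the fucosyltransferase that adds the H antigen to gut glycans and is named after its values were seen, was higher by 4.30 and 3.33 in pairs 1 and 2 but not in pair 3 (-0.09). The list held B3gnt7, and it was drawn up with earlier results known, so its count is a description.

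Genes of mucosal alarm leaned higher, with sizes and, for some members, signs that varied with the pair. In all pairs 9.38% of all genes were higher and 12.9% lower. Of 20 STAT3 response genes, 9 were higher and 0 lower in all pairs, with Il4ra at 0.87, 1.35 and 0.49 and Bcl3 at 0.68, 0.40 and 0.98 beside Socs3 and Tifa. In pair 3 alone, 7 of the 20 were lower. Of 21 mucosal defence genes, 9 were higher and 0 lower in all pairs, while 7 were lower in pair 2 and 9 in pair 3. Ltf, the iron-binding lactoferrin, stood at 4.80, 4.02 and 4.85 against 7.16, 5.11 and 6.05, without overlap. Nos2, the inducible nitric oxide synthase, stood at 9.21, 4.83 and 5.76 against 9.91, 8.03 and 6.82, and Duoxa2, the partner of a hydrogen peroxide producing oxidase, at 9.37, 5.45 and 5.38 against 10.87, 7.93 and 6.11. In both the siGFP array of pair 1 was above the siYAP/TAZ arrays of the other pairs. Ubd, an inducible ubiquitin-like protein, differed by 0.92, 0.52 and 3.54. None of the defence genes passed the threshold in the paired fit. Without pairs 1, 2 and 3, 3, 0 and 9 of the 21 did, where 64, 2 and 78 of all 19938 genes were called.

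Interferon and antigen presentation genes differed by pair. All 22 interferon response genes were higher in pair 2, with a median of 1.24, beside -0.34 in pair 1 and -0.10 in pair 3, and 6 were higher in all 3 pairs. These included Ifit2, at 6.21, 5.60 and 6.30 against 6.77, 7.76 and 7.91, and Usp18, the brake of interferon receptor signalling, at 8.79, 8.43 and 9.45 against 10.67, 9.88 and 9.87, both without overlap. All 13 antigen presentation genes were higher in pair 3 (median 1.63) and 11 of 13 in pair 2 (median 0.83), while 9 of 13 were lower in pair 1 (median -0.22). H2-Eb1, a class II chain, differed by -3.20, 2.13 and 2.59. The immunoproteasome genes Psmb9 (0.26, 0.75 and 1.63) and Psmb8 (0.13, 0.49 and 1.69) were higher in each pair without overlap.

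Markers of lymphocytes moved with these pairs. Of 17 B and plasma cell markers, 16 were higher in pair 2 and 17 in pair 3, with medians of 3.06 and 1.23, against 0.04 in pair 1, and 8 were higher in all 3 pairs. Their mean level was 5.16, 5.17 and 5.67 in the siGFP arrays and 5.02, 7.84 and 6.92 in the siYAP/TAZ arrays, with 10 of the 17 in the dimmest 33% of all genes. Bank1, a B cell adaptor, stood at 4.86, 4.94 and 6.28 against 4.84, 9.03 and 8.07, and Cd79b, of the B cell receptor, at 5.16, 5.10 and 5.67 against 5.32, 8.81 and 6.80. Of these 17 markers, 12 were called without pair 1, 0 without pair 2 and 6 without pair 3, where 64, 2 and 78 of 19938 genes were called in all. T cell markers (19 measured) had medians of -0.31, -0.39 and 1.00, so that pair 3 alone was higher. The part of lymphoid cells in the interferon and antigen presentation differences was not tested.

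Markers of other cells were counted as well. Of 16 myeloid markers 3 were higher and 2 lower in all pairs, of 17 stromal and muscle markers 3 and 3, of 12 endothelial markers 0 and 1, of 10 enteric neuron and glia markers 3 and 2, of 9 pancreatic enzyme genes 1 and 0 and of 2 erythroid markers 1 and 0. Dcn, a matrix proteoglycan of fibroblasts, was lower (-0.54, -0.85 and -0.53) and Mrc1, a macrophage receptor, higher (0.90, 0.75 and 0.34).

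Single pairs differed far more than the 3 shared. At least 2-fold higher and lower were 402 (2.02%) and 467 genes (2.34%) in pair 1, 955 (4.79%) and 1667 (8.36%) in pair 2, and 430 (2.16%) and 330 (1.66%) in pair 3. Of these, 82 and 74 of pair 1, 84 and 136 of pair 2 and 94 and 53 of pair 3 differed at least 2-fold the other way in another pair. Across genes, the differences correlated at r = -0.122 between pairs 1 and 2, 0.198 between pairs 1 and 3 and -0.104 between pairs 2 and 3, a description over genes of pairs that share no array.

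In pair 1 the largest differences included acute-phase and antimicrobial genes. Lrg1, a leucine-rich glycoprotein of the acute phase, stood at 12.12 in its siYAP/TAZ array and between 5.17 and 5.94 on the other 5 arrays, a difference of 6.96 there against 0.48 and -0.20. Lcn2, which binds bacterial siderophores, stood at 11.09 against 4.86 to 5.30 on all others, a difference of 6.02. Myot, a sarcomere protein, differed by 4.62. Fabp1, the fatty acid binding protein of the upper gut, differed by 4.96, but here the siGFP array was the one that stood apart, at 5.28 against 8.79 to 11.65. Lower in pair 1 were Cubn, Rdh7, H2-Eb1 and Gsdmc2, a gasdermin (-2.90). The unfolded protein response genes were also higher there, 20 of 23 with a median of 0.68 against 0.18 and -0.03, led by Chac1 at 3.33.

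Pairs 2 and 3 opposed each other in genes of gut position. Fabp6, the ileal bile acid binding protein, stood at 11.16, 4.24 and 10.45 in the siGFP arrays and at 8.75, 11.93 and 4.40 in the siYAP/TAZ arrays, differences of -2.41, 7.69 and -6.05. Slc10a2, the bile acid uptake transporter of the ileum, differed by 0.72, 4.43 and -4.30, Tmigd1 by -0.17, 4.57 and -4.84, and Plb1, a brush border phospholipase, by -0.56, 3.88 and -6.16, with its 7 probe sets alike. For all 4 the low arrays were the siGFP array of pair 2 and the siYAP/TAZ array of pair 3. All 18 ileal genes were lower in pair 3, and 13 of 18 higher in pair 2. Reg1 (-3.67 and 4.05) and Cd36, a fatty acid transporter (-3.81 and 2.49), ran the other way in pairs 2 and 3. For the 18 genes of the proximal small intestine the medians were -0.36, -0.47 and 0.08. The labels do not state where along the gut each isolate was taken, and the part of gut position in these differences was not tested.

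**Figure D5:**
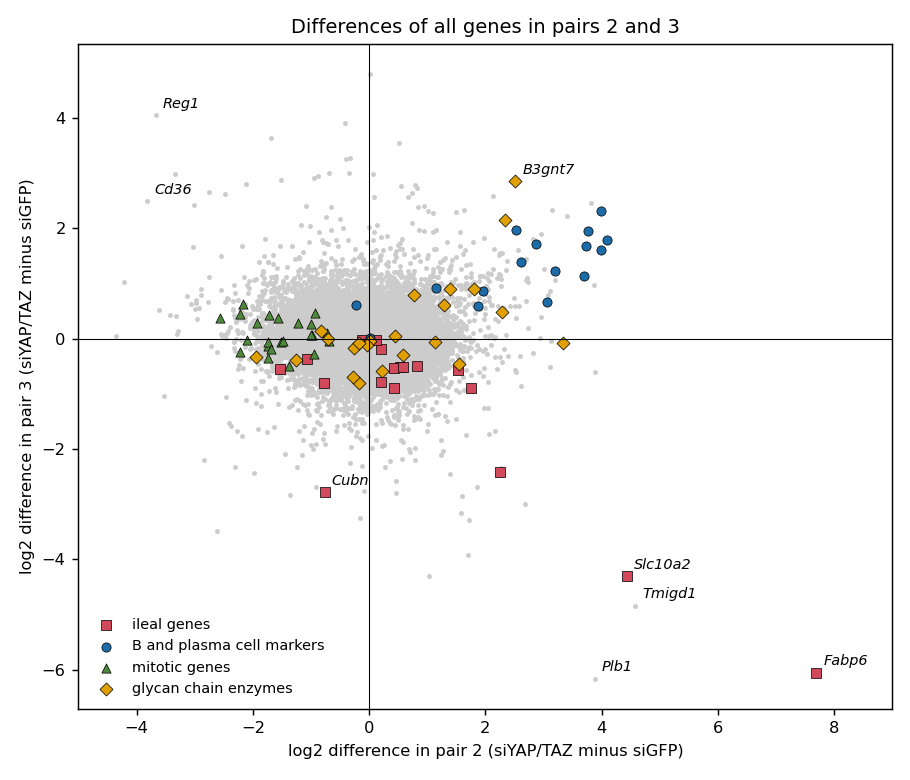
Difference of siYAP/TAZ minus siGFP of all 19938 genes in pair 2 (x axis, log2) and pair 3 (y axis, log2), with 4 lists coloured. The ileal genes reach from Fabp6 at 7.69 and -6.05 toward 0, 16 of 17 B and plasma cell markers lie higher in pair 2 and 17 in pair 3, and B3gnt7 sits at 2.51 and 2.86.

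Among the other large single-pair differences, Cyp2b10, a cytochrome P450, differed by -4.35 in pair 2, where its siGFP array was the highest of the 6 at 10.80. Cwc22, a splicing factor with 8 probe sets, differed by -2.48, -4.21 and 1.02, and Abhd17a, a depalmitoylase, by 4.79 in pair 3, where its siGFP array stood at 4.17 and the other 5 at 8.18 to 8.96. Higher in pair 3 was Plaat3, a phospholipase (3.27), and lower Tmem117 (-4.30).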

How the data were processed

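The authors deposited linear Affymetrix intensity values of 28853 probe sets on every array. Per the labels' protocols, total RNA was labelled with biotin by a whole-transcript kit. How probes were background corrected, summarised and scaled is not stated there. Every array's lowest intensity was 16.0005 to 16.0007, and array medians were 76.4 to 91.3. If a constant lies under all values, differences of dim genes are understated. For arrays, their number limits the precision.

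Values were put on the log2 scale and quantile normalized over all 8 arrays. Of the probe sets, 21789 named 1 gene, 1621 several and 5443 none in the platform table. Each of 19938 genes took its brightest probe set. The 6 siRNA arrays were fitted by lmFit and eBayes of limma 3.58.1 (R 4.3.3), the replicate number being a block, and p-values were adjusted by Benjamini-Hochberg over all genes. The fit was run on simulated data with noise well below that of these arrays. That checks the code and does not show the power or false calls at the real noise. The labels name the controls by number, which is where the pairing comes from.

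Members and gene lists were chosen with earlier results of these data known. Genes were named by rule: the targets and TEAD genes, called genes, 12 genes per direction with the largest smallest-of-3 difference, 4 per direction in each pair, 4 with the widest gap between pairs, and up to 4 per list. The 12 higher genes were added to the 1 called after that count was known. Predicted genes and receptor families were passed over. Alternatives were no block, other scalings, other probe set and variance choices, a filter on the dimmest 33%, and each pair left out.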

Additional observations from a re-analysis of the deposited data

How the results depend on the processing

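The paired count of 1 gene higher and 0 lower changed with several choices. Without the replicate block it was 0 and 0. It became 3 higher and 5 lower after centring on the 75th percentile, 2 and 5 without normalization, 3 and 5 without the dimmest 33%, and 4 and 5 with a trended robust prior. The 5 lower genes in each of these 4 were Apol10a, Ces2a, Mreg, Rdh7 and Olfr165, the last named outside the rule. B3galt5 was among the higher genes in all 4, Socs3 in those with centring, the filter or the trended prior, and Ltf with the trended prior. Leaving out 1 pair gave 2 to 46 higher and 0 to 32 lower genes, in fits of 2 pairs where a call need not mean agreement. Quantile normalization of the 6 arrays and the mean of probe sets left 1 and 0. Genes of at least 0.5 in every pair numbered 229 to 508 higher and 448 to 576 lower when 1 pair was left out, where only 2 pairs had to agree, and 198 were lower without normalization. Yap1 reversed to 0.26 without pair 2 (range -0.31 to 0.26), and Wwtr1 to 0.012 without pair 3 (range -0.71 to 0.012). The cause of these changes was not tested. As a check of the pairing, deviations of same-numbered arrays from their group means correlated at 0.755, -0.13 and 0.571 in pairs 1 to 3. The siGFP array of pair 2 correlated best with the siYAP/TAZ array of pair 1 (0.094), and that of pair 3 with the siYAP/TAZ array of pair 2 (0.583), so the data do not show pairing for every number. The median residual SD was 0.304 with the block and 0.425 without. With 3 pairs and 1 probe set per gene, small differences of dim genes could not be resolved.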

Other observations

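Some gene groups outside the comparisons above also differed by pair. Respiratory chain genes were higher in 22 of 23 cases in pair 3, with a median difference of 0.64, and lower in 18 of 23 in pair 2, with a median of -0.55. Cycs, the electron carrier cytochrome c, was the 1 member higher in all 3 pairs (0.25, 0.05 and 0.72). Circadian clock genes had medians of 0.03, -0.33 and -0.36. Per3, a clock repressor gene (-0.69, -0.23 and -1.09), Clock (-0.64, -0.19 and -0.63) and Dbp, a clock output factor (-0.18, -1.61 and -0.29), were lower in all pairs and Cry1 higher (0.02, 1.17 and 0.17). Of 20 immediate early genes, 3 were higher, Socs3, Ier3 and Zfp36, and 1 lower, Jun (-0.32, -0.91 and -0.48).

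Transport and signalling lists held pairs of genes that ran opposite ways. Among 22 amino acid and sugar transport genes, Slc36a1, a proton-coupled amino acid transporter, was higher in every pair (1.11, 0.53 and 1.73), while Slc6a20a, an imino acid transporter (-2.37, -0.42 and -1.57), and Slc5a4b, of the sodium-glucose transporter family (-2.88, -0.91 and -1.90), were lower. Both lower genes had no overlap between groups. In the Notch list (13 measured), Notch1 was lower (-0.67, -1.47 and -0.09) and Notch2 higher (0.17, 1.20 and 0.98) in all 3 pairs. Among 15 regenerative and fetal-type epithelial genes, 1 was higher, Anxa10, and 1 lower, Krt19, in all pairs, and Il33, an alarmin, differed by 3.69, -0.74 and 2.20. None of these genes passed the threshold of the paired fit.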
